A study of Mus musculus with 147 samples.

Results

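Rhox5, Rhox6, Rhox9, Rhox10 and Rhox13 were followed from the early embryo to the adult testis in single cells of the mouse male germline. They are 5 of the 34 genes whose names start with Rhox among the 31053 genes of the UMI count table, and were taken by name. Rhox genes (reproductive homeobox genes on the X chromosome) lie in 1 tandem cluster and encode homeodomain proteins, a class of transcription factors that bind DNA. They are known for their expression in placenta, gonads and epididymis, often in waves. Rhox5 is best known as an androgen-responsive gene of Sertoli cells, the somatic cells that nurse germ cells in the testis tubules. Rhox6 and Rhox9 are known from placenta and embryonic germ cells, Rhox10 from prospermatogonia (ProSPG) and the founding of spermatogonial stem cells, and Rhox13 from late fetal and postnatal germ cells. DNA methylation is known to keep many Rhox genes silent in somatic tissue, and primordial germ cells (PGCs) lose most DNA methylation while they enter the gonad.

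Cells were sequenced with a modified STRT-seq, in which a unique molecular identifier (UMI) marks each transcript and reads come from its 3′ end. All animals carried the BVSC transgenes (Blimp1-mVenus and Stella-ECFP), 2 fluorescent reporters that label PGCs. Wild-type (WT) animals came from C57BL/6 females and BVSC males and gave 61 pools at 28 time-points from E6.5 (embryonic day) through PND0 to PND14 (postnatal day), PND30 and PND35 to the adult, a pool being the cells of 1 time-point, genotype and replicate. Helq null animals descend from 1 BVSC embryonic stem cell clone in which CRISPR/Cas9 removed a few bases of Helq exon 1 on both alleles, through chimeras that were crossed, and gave 9 pools from E11.5 to E18.5. Helq encodes a DNA helicase of replication-linked repair. From E8.5 to E18.5, sorting for the reporters was used to collect germ cells (the BVSC gate), and from E11.5 to E18.5 a Negative gate was used to collect somatic cells of the same gonads. After birth, testis cells were picked at random among those with the shape of germ cells, with sorting by DNA content at PND30 and for part of PND14. Germ cells, Sertoli cells and interstitial or peritubular cells were then told apart by clusters named from marker genes. The clusters were built without any Rhox gene, but Rhox8 was among the Sertoli markers used in naming them. The earliest embryos (E6.5 and E7.5) gave cells named EPIrandom or FACSrandom.

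In all, 11598 of 11896 WT cells and 1094 of 1136 Helq null cells passed the filters. Germ cells of 54 WT pools were placed in 9 windows, with 27 to 383 cells and 11603962 to 129711214 UMIs per pool. Values are CPM, counts per 1000000 UMIs of the summed cells of a pool. CPM are not scaled by gene length, and the capture of each gene's transcripts was not measured, so levels are compared mainly between pools. A lower CPM in summed cells can come from fewer cells that express a gene or from less RNA per cell, and these cannot be told apart from sums alone. Some pools stood apart. In E17.5 replicate 1, the BVSC gate held more RNA of the Sertoli gene Amh (134.6 CPM) than in the other E17.5 pool (6.678 CPM), and leaving this pool out changed no call of the 5 genes. The unsexed pools E10.5 replicates 1 and 2 had 3 of 92 and 4 of 94 cells with at least 3 UMIs of Y-linked genes, and a median of 0 such UMIs per cell against 27 in the third pool, labelled male. The Helq null E11.5 pool, labelled male, had a median of 6 such UMIs per cell, against 89 and 89.5 in the WT pools of that age.

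On mm10 the genes lie on chromosome X between 37804842 and 38129967 (GENCODE M21), inside a Rhox cluster from 37213804 to 38306028. Rhox5 spans 37804842 to 37808876 on the plus strand and Rhox6 spans 37826910 to 37829857 on the plus strand, each with 4 exons. Rhox9 spans 37899097 to 37901770 on the minus strand, with 2 to 4 exons in its transcripts. Rhox10 spans 38066475 to 38071691 and Rhox13 spans 38121219 to 38129967, both on the plus strand with 3 exons. Reads were counted at transcript ends, so it was checked whether these ends also occur in other genes. None of the windows of 50 bases in the last 400 bases of the 5 genes' transcripts was found in a transcript of another gene. Many of the other 29 Rhox genes are near-identical tandem copies (Rhox2, Rhox3, Rhox4 and Rhox7 series), and their counts are uncertain.

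RefSeq promoters of 300 bases (250 before and 50 after the start, GRCm38.p6, plus strand) were at hand for Rhox5, Rhox10 and Rhox13 and are shown. None was at hand for Rhox6 and Rhox9. CG dinucleotides, the targets of DNA methylation, are in capitals. The RefSeq start of Rhox5 lies 50234 bases and that of Rhox13 379 bases upstream of the GENCODE start, and that of Rhox10 is the same. Counts of transcript ends do not show which start the counted transcripts used, so for Rhox5 the sequence is that of the RefSeq entry only.
Rhox5, chrX:37754358-37754657: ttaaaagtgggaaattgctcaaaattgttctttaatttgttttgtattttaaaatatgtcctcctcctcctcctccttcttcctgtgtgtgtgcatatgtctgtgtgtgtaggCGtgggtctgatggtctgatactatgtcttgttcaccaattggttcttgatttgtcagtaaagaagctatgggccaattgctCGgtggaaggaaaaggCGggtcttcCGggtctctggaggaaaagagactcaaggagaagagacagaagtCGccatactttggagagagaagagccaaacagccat
Rhox10, chrX:38066225-38066524: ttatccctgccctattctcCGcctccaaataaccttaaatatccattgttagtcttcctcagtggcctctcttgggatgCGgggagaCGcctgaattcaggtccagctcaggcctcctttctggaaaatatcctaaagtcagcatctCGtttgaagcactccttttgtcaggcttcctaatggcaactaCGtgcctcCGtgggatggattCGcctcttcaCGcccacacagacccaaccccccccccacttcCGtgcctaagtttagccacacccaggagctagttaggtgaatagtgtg
Rhox13, chrX:38120590-38120889: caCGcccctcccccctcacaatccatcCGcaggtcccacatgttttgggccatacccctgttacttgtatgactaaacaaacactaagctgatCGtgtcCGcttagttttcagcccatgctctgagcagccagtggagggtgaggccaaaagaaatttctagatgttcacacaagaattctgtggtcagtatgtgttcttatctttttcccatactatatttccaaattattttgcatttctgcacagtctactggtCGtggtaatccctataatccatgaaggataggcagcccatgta

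The Rhox5 and Rhox13 promoters held 5 CG each, and 38% of 32851 promoters of this length held fewer. The Rhox10 promoter held 9 CG, and 54.2% of promoters held fewer. Of 4 other motifs searched on both strands, AGAACA (an androgen receptor half-site) matched once in Rhox5, 225 bases before the start, and once in Rhox13, 57 bases before the start. It is present in 19% of all promoters. The homeodomain core TAATTA (5.29% of promoters), the octamer ATGCAAAT (1.74%) and the E-box CACGTG (7.15%) had no match in the 3 promoters. None of these motifs overlaps another in its letters other than CACGTG, which contains CG. A match is a description of letters and not of a bound site.

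The 5 genes were on in germ cells at different but overlapping times, as the plot of CPM over time shows. Rhox6 and Rhox9 were low at E15.5 and E16.5, when Rhox10 was high. In E17.5-PND1, Rhox10 was still high (median 257.9 CPM), and Rhox6 and Rhox9 had medians of 58.5 and 62.21 CPM. Rhox5 stayed on beside Rhox10, with a median of 338.6 CPM in E14.5-E16.5 and 148.5 CPM in E17.5-PND1. Rhox5, Rhox6 and Rhox9 were high in migrating and mitotic PGCs (E9.5 to E13.5), and Rhox10 and Rhox13 were near 0 at E9.5 and high from E15.5 and E17.5 onwards. Each of the 9 windows was compared with the one before it over pools. For sets of pools said below not to overlap, the share of all genes without overlap was not counted. From E9.5-E10.5 to E11.5-E13.5, 2 of the 5 rose and none fell, where 9.42% of all genes tested were called in either direction (4.78% higher, 4.64% lower). From E11.5-E13.5 to E14.5-E16.5, 1 rose and 2 fell (48.5% of all genes called, 34.9% higher and 13.6% lower, and the median of all genes shifted by 0.65 on the log2 scale). From E14.5-E16.5 to E17.5-PND1, 1 rose and 1 fell (27.5% called, 12.3% higher and 15.3% lower, median shift 0.30). From E17.5-PND1 to PND2-PND5, 2 fell (48.6% called, 20.4% higher and 28.1% lower, median shift -0.35), and from there to PND6-PND10, 3 fell (10.3% called, 3.86% higher and 6.45% lower).

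Several of these calls were lost when every pool with the same replicate number was left out at once, which leaves about 1 pool per age. Without the pools numbered 1, the first rise of Rhox10 (adjusted p = 0.0948, in a range of 0.00014 to 0.187 over all settings) and the rise of Rhox13 in E17.5-PND1 (0.0572, in a range of 0.000838 to 0.242) were not called. Without the pools numbered 2, these 2 rises and the later falls of Rhox5 in E17.5-PND1 (0.338) and PND6-PND10 (0.342, in a range from 2.24e-09), and of Rhox9 in PND2-PND5 (0.0865, in a range from 1.21e-05), were not called. The first rise of Rhox13 and the fall of Rhox9 in PND6-PND10 were lost without either set, and the fall of Rhox6 in PND6-PND10 was lost without the pools numbered 2. The calls of E14.5-E16.5 in Rhox6, Rhox9 and Rhox10 were kept without either set.

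**Figure D1:**
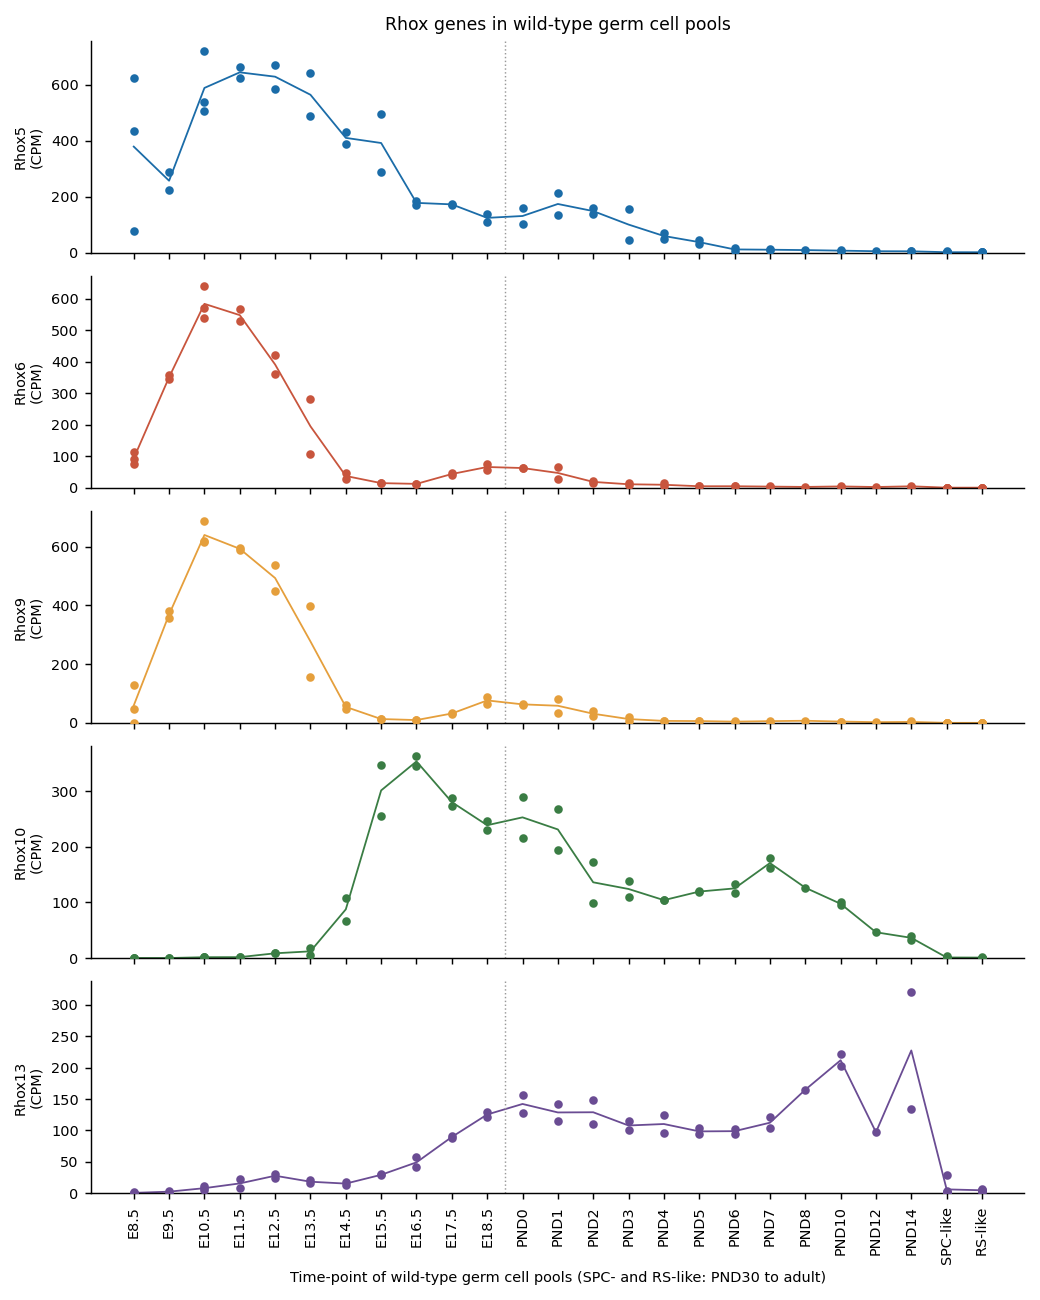
CPM of Rhox5, Rhox6, Rhox9, Rhox10 and Rhox13 (1 panel each, linear axes from 0) in WT germ cell pools by time-point; points are pools, lines join their means, the dotted line marks birth, and SPC-like and RS-like pools of PND30 to adult stand at the right. Rhox6 and Rhox9 peaked at E10.5 and were low by E15.5, where Rhox10 had risen to 255.2 and 347.8 CPM, and Rhox13 stayed above 88 CPM from E17.5 to PND14.

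Rhox6, a gene of placenta and PGCs, had 344.2 and 357 CPM in the 2 E9.5 pools and 538.8, 571.8 and 640.3 CPM in the 3 E10.5 pools. At E11.5 it had 528.4 and 567.2 CPM, at E12.5 360.3 and 421.8, and at E13.5 106.6 and 283. At E14.5 it had 26.49 and 47.84 CPM, and at E16.5 11.76 and 12.38. The level thus fell over E12.5 to E14.5, and the 6 pools of E14.5-E16.5 all lay below the 6 pools of E11.5-E13.5. The fall between these windows was -4.34 ± 0.49 on the log2 scale (SE, edgeR adjusted p = 1.64e-09). Rhox6 was then higher in every pool of E17.5 and E18.5 (39.6, 47.2, 55.38 and 75.9 CPM) than in the E15.5 and E16.5 pools (11.76 to 15.43 CPM). The windows overlap, because E14.5 pools were still high, and the difference between E17.5-PND1 and E14.5-E16.5 did not pass the test (0.89 ± 0.41, adjusted p = 0.0945). It passed with library totals alone (1.36, adjusted p = 0.0196), with RLE size factors (0.0281) and with DESeq2 (0.0141), in a range of 0.0141 to 0.391 over all settings. Rhox9 (0.66 ± 0.42, adjusted p = 0.235) passed with library totals alone (0.0453, range to 0.654).

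Rhox9, on the opposite strand of the cluster from Rhox6, had a similar course. It had 357.8 and 380 CPM at E9.5, 614.4, 617.7 and 686.6 at E10.5, and 589 and 596 at E11.5. It had 449 and 536.9 CPM at E12.5 and 157.3 and 396.9 at E13.5. At E14.5 it had 47.42 and 61.24 CPM, and at E15.5 and E16.5 between 9.112 and 13.71. The pools of E14.5-E16.5 did not overlap those of E11.5-E13.5, with a log2 fold change of -4.30 ± 0.50 (adjusted p = 3.85e-09). Over the 54 pools, log2(CPM + 1) of Rhox6 and Rhox9 had a Pearson r of 0.991, where pools share their stage of development. At E13.5, replicate 1 was the lower pool in both genes.

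Both genes fell again after birth. From E17.5-PND1 (8 pools, Rhox6 28.45 to 75.9 CPM with a median of 58.5) to PND2-PND5 (8 pools, 3.99 to 22.06, median 10.84), Rhox6 fell by 1.98 on the log2 scale (SE 0.39, adjusted p = 5.34e-05), with no overlap. Rhox9 went from 30.5 to 89.62 CPM (median 62.21) to 5.248 to 39.9 CPM (median 7.19), a fall of 1.71 (SE 0.39, adjusted p = 0.000461), and the pool PND2 replicate 1 overlapped the earlier window. By PND6-PND10 (7 pools) Rhox6 lay between 2.183 and 4.961 CPM and Rhox9 between 1.73 and 7.841. The further falls were -1.40 ± 0.40 for Rhox6 (adjusted p = 0.0204) and -1.29 ± 0.41 for Rhox9 (adjusted p = 0.0357), and neither passed when clusters were named by marker level alone (adjusted p = 0.264 and 0.202, in ranges of 0.0035 to 0.689 and 0.0119 to 0.463 over all settings).

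Rhox5, the founding member of the family, was the only one of the 5 with over 20 CPM in every early pool. It ranged from 29.57 to 640.6 CPM over the E6.5 and E7.5 pools, with wide differences between replicates of 1 age. In the BVSC gate of E8.5 it had 624.5, 76.15 and 435.6 CPM in replicates 1, 2 and 3. Cells of E8.5 replicates 1 and 3 fell mostly in a cluster led by Ttr and Apoa1, genes of visceral endoderm, and the part of these cells in the values was not tested. From E9.5 (224.9 and 288.4 CPM) it stood at 505.9, 538.5 and 721.3 CPM at E10.5 and between 487 and 671.1 CPM over E11.5-E13.5 (6 pools, median 633.2).

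The Rhox5 level was lower in each later window. In E14.5-E16.5 (6 pools) it had 169.6 to 495.4 CPM with a median of 338.6. The E16.5 pools (169.6 and 185.4) were the lowest, and E15.5 replicate 2 (495.4) overlapped the earlier window, whose lowest pool had 487 CPM. The difference was -1.11 ± 0.50 and missed the threshold (adjusted p = 0.0586). It passed without the Adult replicate 1 spermatocyte-like pool (0.0345), which enters the shared estimate of the spread, and with germ cell-like clusters required within the gate (0.0491), in a range up to 0.221. In E17.5-PND1 (8 pools) it had 102.1 to 214.1 CPM with a median of 148.5, a fall of 1.54 (SE 0.46, adjusted p = 0.00997) that did not pass with library totals alone (-1.12, adjusted p = 0.0745, in a range of 0.00377 to 0.338 over all settings). PND2-PND5 pools had 29.76 to 159.3 CPM (median 59.08), and PND6-PND10 pools 5.245 to 16.83 CPM (median 8.643). These 2 windows did not overlap, and the fall of 3.11 (SE 0.49, adjusted p = 5.36e-05) was the largest of Rhox5 between successive windows before the adult stages.

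Rhox10, known from ProSPG, came on as Rhox6 and Rhox9 fell. It had 0 and 0.0352 CPM at E9.5, where 3 UMIs would be about 0.1 CPM, and 1.088, 1.585 and 1.71 CPM at E10.5. It had 1.172 and 2.019 CPM at E11.5, 8.272 and 8.743 at E12.5 and 5.291 and 18.81 at E13.5. It then had 66.63 and 108.5 CPM at E14.5, 255.2 and 347.8 at E15.5 and 344.6 and 362.8 at E16.5. The highest pool was thus at E16.5, but the pools of E15.5 and E16.5 overlapped and these ages were not tested against each other. The first rise, E11.5-E13.5 against E9.5-E10.5, was 3.01 ± 0.69 (adjusted p = 0.00312), and that of E14.5-E16.5 against E11.5-E13.5 was 4.73 ± 0.67 (adjusted p = 2.59e-07), with no overlap between the latter windows. At E13.5 the pool with more Rhox10 (replicate 1) was the pool with less Rhox6 and Rhox9.

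After E16.5, Rhox10 lay between 194 and 289.5 CPM in E17.5-PND1 (8 pools, median 257.9) and between 99.61 and 172.8 CPM in PND2-PND5 (8 pools). The difference of -0.64 ± 0.50 did not pass the test (adjusted p = 0.294). The 2 windows did not overlap in CPM, in a contrast where 48.6% of all genes were called and the median of all genes shifted by -0.35. In PND6-PND10 (7 pools) it had 94.81 to 180 CPM with a median of 126.5. Within that window the PND7 pools were highest (161.7 and 180) and the PND10 pools lowest (94.81 and 100.3). The 3 pools of PND12 and PND14 had 46.34, 39.87 and 32.77 CPM and lay below all 7 pools of PND6-PND10. This order carries no test, and the fitted difference of -1.60 ± 0.75 was not called (adjusted p = 0.133). In that contrast 0 of the 5 genes were called by edgeR and by DESeq2, 1 had an unadjusted p under the threshold of 0.05, and 18.8% of all genes were called (14.7% higher, 4.07% lower).

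Rhox13, known from later germ cells, came up slowly and lasted longest. It had 4.286 and 0.633 CPM at E9.5 and 5.087, 7.89 and 11.1 CPM at E10.5. E11.5-E13.5 pools had 9.01 to 30.87 CPM (median 21.42), and the difference from E9.5-E10.5 was 1.78 ± 0.56 (adjusted p = 0.0362). This call was lost without E10.5 replicate 1 (adjusted p = 0.0718), without E9.5 replicate 1 (0.0869) or replicate 2 (0.0993), and without both unsexed E10.5 pools (0.102), in a range of 0.00366 to 0.55 over all settings. E14.5-E16.5 pools had 12.68 to 57.15 CPM (median 29.31), with the lowest values at E14.5 and the highest at E16.5. In E17.5-PND1 it had 88.56 to 156.7 CPM (median 124.8), above every earlier pool, a rise of 1.64 (SE 0.50, adjusted p = 0.0124).

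From E17.5-PND1 to PND14, no difference of Rhox13 between successive windows passed the test. PND2-PND5 pools had 93.84 to 148.4 CPM (median 106.3) and PND6-PND10 pools 94.68 to 221.4 CPM (median 121.4), with PND8 and PND10 pools at 164.8, 202.2 and 221.4 CPM. PND12 replicate 2 had 97.16 CPM and PND14 replicates 1 and 2 had 321.3 and 133.5 CPM. PND12 replicate 1 gave no germ cell sum for this window. Germ cells of PND14 replicate 1 were nearly all sorted for 4N DNA content, and this pool is not a like sample to the other pool of that age. The differences were 0.29 ± 0.44 (adjusted p = 0.609) for PND2-PND5, 0.41 ± 0.46 (0.617) for PND6-PND10 and 0.46 ± 0.60 (0.637) for PND12-PND14.

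In single cells, UMIs of Rhox6 and Rhox10 were counted within pools. Cells were thinned to 50000 UMIs, since cells differ in depth. At E12.5, all 65 and 69 cells of the 2 pools had Rhox6, and 16.92% and 20.29% also had Rhox10. At E14.5, 32.26% and 41.94% of 93 cells each had both, 9 and 20 cells had Rhox6 alone, 35 and 22 had Rhox10 alone, and 19 and 12 had neither. At E15.5, 98.9% and 96.67% of cells had Rhox10 and 25.27% and 26.67% had Rhox6. Both pools of E14.5 held cells of each of these classes. At this depth a cell that expresses a gene can lack a UMI of it, so the classes describe detection and not kinds of cell. The lower share of Rhox6 did not last. In E17.5-PND1, 66.89% of thinned germ cells had Rhox6 and 97.47% had Rhox10.

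**Figure D2:**
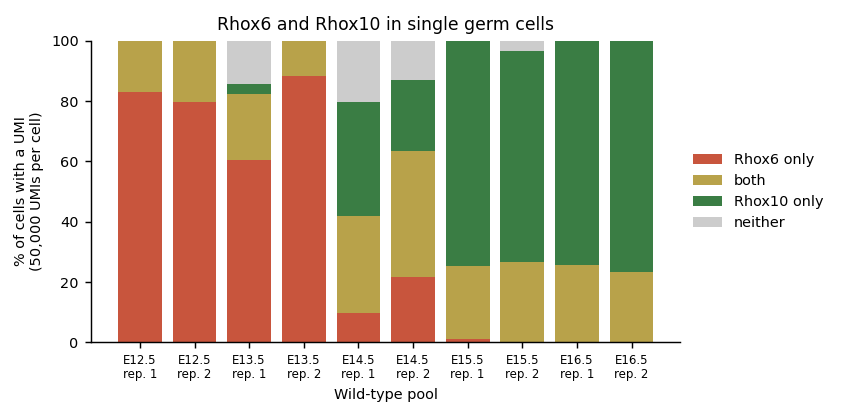
Percent of WT BVSC-gate cells with a UMI of Rhox6 alone, both genes, Rhox10 alone or neither, per pool from E12.5 to E16.5, after thinning each cell to 50000 UMIs (86 and more cells per pool, 65 and 69 at E12.5). Cells with Rhox6 alone made up most of each E12.5 and E13.5 pool and at most 1 cell of each pool from E15.5.

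Free RNA can place UMIs in cells that do not express a gene, so shares were set beside those of Negative-gate cells (E11.5 to E18.5, 512 of 572 cells deep enough, median 162000 UMIs, against 284400 in germ cells of E14.5-E16.5). Rhox10 had a UMI in 13.67% of thinned Negative-gate cells of all these ages and Rhox6 in 23.24%, and both shares changed with age. For Rhox10 the share was 2.907% in the Negative gate of E11.5-E13.5 (median 154400 UMIs), 10.98% in E14.5-E16.5 and 47.37% in E17.5-E18.5. In germ cells of E9.5-E10.5, 1.871% had Rhox10, in E11.5-E13.5 13.51%, and in E14.5-E16.5 88.3%. Both of the latter were above the Negative gate of the same ages. Without thinning, the E11.5-E13.5 shares of Rhox10 were 22.69% in germ cells and 11.73% in the Negative gate. Rhox6 was in 51.74% of Negative-gate cells of E11.5-E13.5 and in 7.576% of those of E14.5-E16.5. In E14.5-E16.5, 34.55% of germ cells had Rhox6 and 35.47% Rhox9, against 96.51% and 96.95% in E11.5-E13.5. Without thinning, the E14.5-E16.5 shares were 60.53% and 55.61%.

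Rhox13 was in most thinned cells from E17.5 on. It had a UMI in 11.43% of thinned germ cells of E9.5-E10.5, 34.2% in E11.5-E13.5, 47.9% in E14.5-E16.5 and 90.21% in E17.5-PND1, beside 5.233%, 9.091% and 22.37% of Negative-gate cells of E11.5-E13.5, E14.5-E16.5 and E17.5-E18.5. Without thinning, Rhox13 was already in 53.99% of germ cells in E11.5-E13.5 and 67.54% in E14.5-E16.5. The Negative gate of these ages then had 11.73% and 21.91%. In thinned germ cells Rhox13 stayed at 91.91% in PND2-PND5, 91.93% in PND6-PND10 and 81.87% in PND12-PND14, while Rhox10 went from 97.47% in E17.5-PND1 to 32.41% in PND12-PND14. Without thinning, Rhox10 went from 99.36% to 62.84% between these windows. Rhox5 was in 98.9% of thinned cells in E14.5-E16.5, 88.89% in E17.5-PND1, 61.44% in PND2-PND5 and 13.11% in PND6-PND10. The number of cells per window was 459 to 1014 up to PND14.

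All 5 genes were low in spermatocyte-like and round spermatid-like cells of PND30 to adult. Spermatocyte-like cells (6 pools of PND30, PND35 and adult) against PND12-PND14 had 5 of 5 genes lower, where 45.8% of all genes were called, 23% higher and 22.9% lower, and the median of all genes shifted by 0.29. Rhox6 had 15 UMIs and Rhox9 had 10 UMIs in all 6 pools together, and the levels were at most 0.24 CPM and 0.0564 CPM, where 3 UMIs correspond to 0.0266 to 0.12 CPM per pool. Their fitted falls were -5.98 ± 0.66 (adjusted p = 2.55e-10) and -6.30 ± 0.71 (adjusted p = 5.37e-10), and sums so near 0 make these sizes depend on the fit. Rhox10 had 0.0235 to 4.445 CPM (median 0.332), a fall of 5.14 (SE 0.74, adjusted p = 1.49e-07). Rhox13 had 0.226 to 29.19 CPM (median 1.48), a fall of 4.66 (SE 0.63, adjusted p = 4.41e-08). Rhox5 had 0.0323 to 4.045 CPM (median 0.676), a fall of 1.75 (SE 0.60, adjusted p = 0.0156) that was not called without the pools numbered 2 (-1.31, adjusted p = 0.34, in a range from 0.000296), which left 4 of the 5 genes called.

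The highest spermatocyte-like value of Rhox5, Rhox6, Rhox10 and Rhox13 was that of Adult replicate 1 (81 cells). In this pool Dazl, high in spermatogonia, had 599 CPM, against 40.32 to 104.5 CPM in the other 5. In round spermatid-like cells (5 pools), Rhox13 had 3.23, 4.772, 2.69, 5.673 and 6.868 CPM and Rhox10 0.185 to 1.232 CPM. Rhox5 had 0.021 to 2.472 CPM, Rhox6 had 9 UMIs in all and Rhox9 had 2. Against spermatocyte-like cells, 0 of 5 genes were called by edgeR or DESeq2, 0 had an unadjusted p under 0.05, and 51.3% of all genes were called (26.9% higher, 24.4% lower). Without the Adult replicate 1 spermatocyte-like pool, Rhox13 was higher in round spermatid-like cells (1.44, adjusted p = 0.00506, the lowest in a range up to 0.951), while with it the difference was -0.19 ± 0.54. With clusters named by marker level alone, Rhox5 was lower in round spermatid-like cells (-2.10, adjusted p = 0.00697).

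Spermatogonium-like cells of the late stages were found in 3 pools. Rhox13 had 289.3 CPM there in Adult replicate 1, 385.7 in PND30 replicate 2 (14 cells) and 224.3 in PND35 replicate 1 (17 cells). All were above 29.19 CPM, the highest spermatocyte-like value. Rhox10 was at 48.08 CPM in the Adult pool but at 0.502 and 0.878 CPM in the other 2. Rhox5 had 20.2, 5.022 and 7.023 CPM. These cells were in no window and the values were not tested.

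The gates before birth showed the 5 genes higher in germ cells than in somatic cells of the same gonads. In 16 WT pools from E11.5 to E18.5 with both gates, 5 of 5 were higher in germ cells, where 56.5% of all genes were called, 37.1% higher and 19.4% lower, and the median of all genes was 0.68. Log2 fold changes were 3.69 ± 0.31 for Rhox5 (adjusted p = 6.37e-09), 3.92 ± 0.55 for Rhox6, 3.91 ± 0.51 for Rhox9, 4.35 ± 0.63 for Rhox10 and 4.25 ± 0.50 for Rhox13. Germ cells were higher in all 16 pools for Rhox5, Rhox6 and Rhox10, and in 15 for Rhox9 and Rhox13. The exception was E15.5 replicate 1, where the Negative gate had 50.14 CPM of Rhox13 and 21.66 CPM of Rhox9 against 28.7 and 13.71 CPM in germ cells, and no UMI of Rhox10.

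The germ cell genes Ddx4 and Dazl were also seen in the Negative gate, and their values are given beside those of the Rhox genes. In the 4 pools of E11.5 and E12.5, Rhox5 had 64.53, 74.33, 93.09 and 98.57 CPM in the Negative gate, a median of 13.77% of the germ cell value. Rhox6 stood at 11.01% and Rhox9 at 10.35%, against 5.54% for Ddx4 and 5.843% for Dazl. In the 12 pools of E13.5 to E18.5, Rhox5 stood at 6.453% (4.729 to 53.96 CPM), against 6.495% for Ddx4 and 7.098% for Dazl. The Negative gate thus held 64.53 CPM or more of Rhox5 in every E11.5 and E12.5 pool and 53.96 CPM or less in every later pool. Whether germ cell RNA is the source of these UMIs was not tested.

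**Figure D3:**
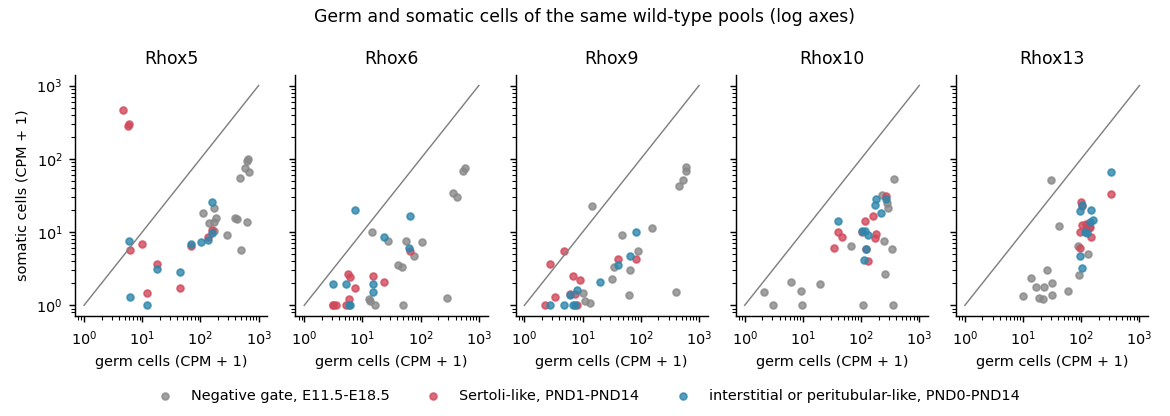
CPM + 1 of each gene in germ cells (x axis) and in somatic cells (y axis) of the same WT pools, log axes, with the line of equal values; grey points are the Negative gate of E11.5-E18.5, red points Sertoli-like cells of PND1-PND14 and blue points interstitial or peritubular-like cells of PND0-PND14. Most points lie below the line, and 3 Sertoli-like points of Rhox5 lie far above it.

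After birth the picture was alike except for Rhox5 in Sertoli cells. Against Sertoli-like cells of the same pools (11 pools, PND1 to PND14), Rhox6, Rhox9, Rhox10 and Rhox13 were higher in germ cells (4 of 5, where 57% of all genes were called, 38.4% higher and 18.6% lower, median 0.69), by 3.37 ± 0.57, 2.39 ± 0.60, 3.25 ± 0.29 and 2.99 ± 0.23. Rhox9 was not called without the pools numbered 2 (1.16, adjusted p = 0.423, in a range from 1.33e-05), and with PND12 and PND14 alone neither Rhox6 (0.133, in a range from 4.4e-09) nor Rhox9 (0.263) was. Rhox5 was not called (1.00 ± 1.23, adjusted p = 0.502, up to 0.717 over the settings), but with pools up to PND7 alone it was higher in germ cells (2.61, adjusted p = 0.000219), and with PND12 and PND14 alone the difference was -6.65, a split chosen after the values were seen. Against interstitial or peritubular-like cells (10 pools, PND0 to PND14), 5 of 5 were higher in germ cells (59.5% called, 39.6% higher and 19.9% lower, median 0.70), with 2.97 ± 0.45 for Rhox5 and 2.08 ± 0.62 for Rhox6 at the lower end and 3.68 ± 0.48 for Rhox9 at the upper. Rhox6 was not called there without the pools numbered 2 (1.07, adjusted p = 0.347, in a range from 0.000161). In Sertoli-like cells of PND1-PND7 (8 pools), Rhox10 stood at a median of 6.67% and Rhox13 at 9.527% of the germ cell value, against 11.6% for Ddx4 and 16.57% for Dazl. Germ cells were higher in all 8 of these pools for the other members but in 6 for Rhox9. In PND14 replicate 1, the only late pool with interstitial or peritubular-like cells, these had 18.9 CPM of Rhox6 and 6.67 CPM of Rhox5 against 6.364 and 5.003 CPM in germ cells.

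In Sertoli-like cells, Rhox5 went from under 10 CPM to over 200 CPM between PND7 and PND12. The 8 pools of PND1 to PND7 had 0.473 to 9.747 CPM with a median of 5.14. PND12 replicates 1 and 2 had 210.5 and 278.2 CPM (19 and 41 cells), and PND14 replicates 1 and 2 had 298.7 and 456.3 CPM (56 and 10 cells). The groups did not overlap. The Sertoli genes Sox9 (220.8 to 488.3 CPM early, 375.7 to 604.2 late) and Wt1 (211.5 to 393.7 and 372.5 to 608) were high in both sets, while Amh, a product of immature Sertoli cells, went from 272.8 to 824.8 CPM to 73.03 to 109.3 CPM. In Sertoli-like cells before birth (7 WT pools of the Negative gate) Rhox5 had 1.067 to 13.34 CPM.

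**Figure D4:**
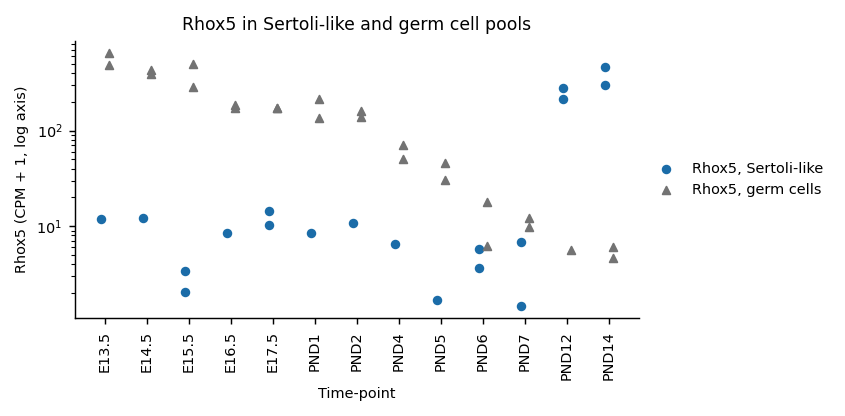
Rhox5 (CPM + 1, log axis) in Sertoli-like cells (circles) and germ cells (triangles) of WT pools by time-point; before birth the Sertoli-like cells are from the Negative gate. Germ cells lie above Sertoli-like cells up to PND7, and the 4 Sertoli-like pools of PND12 and PND14 (210.5 to 456.3 CPM) lie above all germ cell pools of those ages.

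A comparison of these 2 sets of Sertoli-like pools was added after the values had been seen and is a description of their size. Rhox5 differed by 6.00 ± 0.41 on the log2 scale (adjusted p = 7.39e-09) and Rhox13 by 1.73 ± 0.46 (adjusted p = 0.00887), the 2 genes called of 4 tested, where 22.9% of all genes were called (11.3% higher, 11.6% lower). The call of Rhox13 was lost without PND12 replicate 1 (1.03, adjusted p = 0.148) and with at least 20 cells per sum (1.28, adjusted p = 0.117), in a range of 0.00198 to 0.148. Rhox13 had 87.87 CPM in PND12 replicate 1 and 10.28 to 31.97 CPM in the other 3 late pools, beside 5.038 to 21.36 CPM early. Germ cells of the same early pools had 5.245 to 159.3 CPM of Rhox5. The difference between germ and Sertoli-like cells in Rhox5 changed by -8.98 ± 0.82 from PND1-PND7 to PND12-PND14 (adjusted p = 1.1e-06), where 12.6% of all genes were called (6.89% higher, 5.7% lower) and 1 of the 5 genes was. In the 3 late pools with both cell types, germ cells had 3.645 to 5.003 CPM.

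Helq null germ cells were compared with WT germ cells of the BVSC gate at the 6 ages that hold both, daily from E11.5 to E15.5 and E18.5 (9 and 12 pools, time-point as covariate). The study made these animals to follow the passage from dividing to arrested PGCs without Helq. It names Rhox10 among the genes misregulated in null germ cells, from tests over single cells of each cell population. Here cells of all states within the gate were summed per pool, so the comparison is not like for like with that of the study. Helq itself had 15.88 to 39.62 CPM in null and 15.14 to 27.72 CPM in WT pools. A count of UMIs from the 3′ end does not check a small deletion in exon 1. Of the 5 genes, 0 were called by edgeR and by DESeq2 and 0 had an unadjusted p under 0.05, where 0.705% of 21575 genes were called (0.273% higher, 0.431% lower). Differences were -0.29 ± 0.14 for Rhox5 (adjusted p = 0.489), -0.37 ± 0.31 for Rhox6, -0.34 ± 0.32 for Rhox9, -0.07 ± 0.38 for Rhox10 and 0.38 ± 0.31 for Rhox13.

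The pools of 1 age differed widely in the null animals, as the plot by genotype shows. At E13.5, Rhox6 had 158.3 and 26.09 CPM in null replicates 1 and 2 against 106.6 and 283 in WT. Rhox10 had 4.574 and 46.4 CPM in null replicates against 18.81 and 5.291 in WT. At this age, in both genotypes, the pool with less Rhox6 was the pool with more Rhox10. In the null pools of E14.5 and E15.5 it was the reverse. At E14.5, Rhox6 had 15.57 and 46.24 CPM in null replicates 1 and 2, and Rhox10 had 32.79 and 193.8 CPM in null against 108.5 and 66.63 in WT. At E15.5, Rhox10 had 87.14 and 167.6 CPM in null against 347.8 and 255.2 in WT, and at E18.5 175.1 against 247.1 and 230.7.

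**Figure D5:**
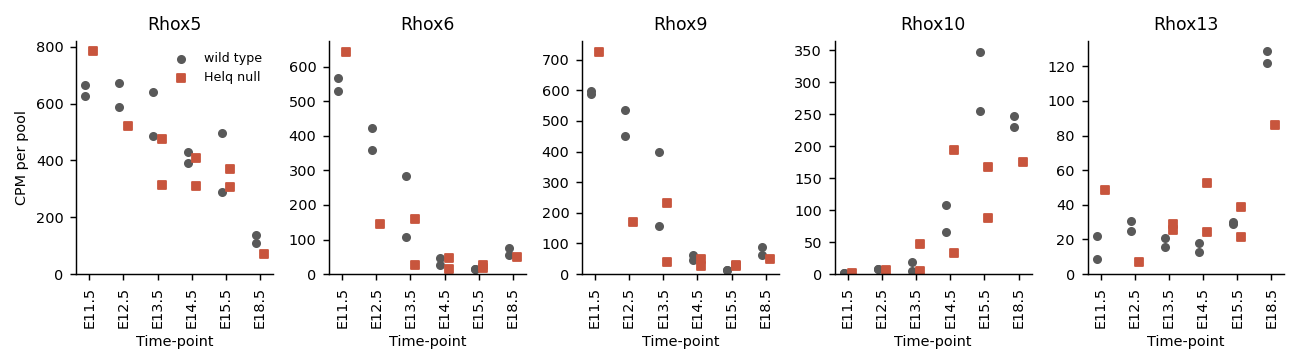
CPM per BVSC-gate pool of each gene at the 6 time-points with both genotypes, grey circles WT and red squares Helq null, linear axes from 0. Null pools of Rhox10 lie below both WT pools at E12.5, E15.5 and E18.5 and overlap them at E11.5, E13.5 and E14.5.

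Rhox10 was thus below both WT pools at 3 of 6 time-points and overlapped at 3. At E15.5, Rhox6 (17.3 and 25.36 CPM) and Rhox9 (27.22 and 30.5) in null pools lay above WT (13.52 and 15.43, and 12.25 and 13.71), and Rhox10 below it. At E12.5 all 5 genes lay below WT in the single null pool, at E18.5 likewise, and at E11.5 4 of 5 lay above it, in the null pool with few Y-linked UMIs. These 3 ages set 1 null pool against 2 WT pools. The share of all genes that lay outside the WT pools was not counted at any age, so these orders carry no test. The null E18.5 pool also had more RNA of the Sertoli gene Sox9 (40.08 CPM, against 8.211 and 14.27 in WT) and of the spermatid genes Prm1 (66.76, against 1.348 and 1.126) and Tnp2 (38.13, against 0 and 0.363). Leaving this pool out changed no call of the 5 genes. Whether the genotype difference itself differed between E14.5-E18.5 and E11.5-E13.5 was tested as an interaction. None of the 5 genes was called by edgeR or DESeq2, and 0 had an unadjusted p under 0.05, with -0.82 ± 0.74 for Rhox10 and 0.79 ± 0.58 for Rhox6. Of all 23029 genes, edgeR called 0 (0%), and DESeq2 called 68.

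In single cells of null pools thinned to 50000 UMIs, 79.79% and 89.77% had Rhox10 at E15.5, against 98.9% and 96.67% in WT. Rhox6 was in 25.53% and 46.59%, against 25.27% and 26.67%. At E14.5, null replicate 2 had both genes in 73.63% of 91 cells, and null replicate 1 in 11.83% of 93 cells. The 2 null pools thus lay on either side of the WT pools (32.26% and 41.94%).

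Some further splits of the cells were tested. Germ cells of the distal and proximal parts of the gonad (E13.5 to E16.5, 8 pools) did not differ in any of the 5 genes by edgeR or DESeq2, with 0 at an unadjusted p under 0.05 and a largest difference of -0.22 ± 0.16 in Rhox6, where 0.00509% of all genes were called. At E6.5, an age before the germ cell windows, cells with Xist and no Y-linked UMI were set against cells with Y-linked UMIs, since the genes are X-linked. Only 2 pools had 10 cells of each kind. Of the 4 genes tested 0 were called by edgeR or DESeq2 and 0 had an unadjusted p under 0.05, with -0.16 ± 0.16 for Rhox5 and 1.08 ± 0.19 for Xist, where 2.42% of all genes were called (2.19% higher in female cells, 0.23% lower). Female cells were chosen by their Xist UMIs, so a higher Xist was set by the split and does not check it. Male cells were chosen by Y-linked UMIs alone, with no limit on Xist. Rhox5 had 452.8 CPM in female against 313 CPM in male cells of replicate 1, and 9.269 against 33.64 CPM in replicate 2, so the 2 pools went opposite ways.

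In germ cells of PND5 to PND8, 374 cells nearer to the Stra8-side markers (differentiating spermatogonia) were set against 368 nearer to the Gfra1-side markers (undifferentiated) over 7 pools. The split is a range of a score, and 88 of 742 cells lay within 0.2 of the cut. Rhox10 was higher on the Stra8 side by 0.36 ± 0.09 (adjusted p = 0.00707) and Rhox13 by 0.39 ± 0.11 (adjusted p = 0.0173), 2 of 5 genes where 9.98% of all genes were called (4.23% higher, 5.76% lower). Rhox10 was at 128.2 to 196.8 CPM on the Stra8 side and 106.1 to 161.1 on the Gfra1 side, and was higher in all 7 pools. Rhox13 was at 96.73 to 174.4 CPM and 71.22 to 101.4 CPM, also higher in all 7. The call of Rhox13 was lost without PND7 replicate 1 (0.34, adjusted p = 0.0812) and without PND8 replicate 2 (0.27, adjusted p = 0.111), in a range of 0.00257 to 0.111. Rhox5 had -0.81 ± 0.38 (adjusted p = 0.202), and passed without PND8 replicate 2 (-1.15, adjusted p = 0.0424) and with no filter (0.0252), in a range up to 0.606.

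The other 29 Rhox genes were counted in each contrast, with the limit on tandem copies above, and none was called by edgeR from E9.5-E10.5 to E11.5-E13.5. From E11.5-E13.5 to E14.5-E16.5, 15 fell and 7 rose (13.6% and 34.9% of all genes), with a median of -1.13 beside 0.65 for all genes. From E14.5-E16.5 to E17.5-PND1, 18 rose and none fell (12.3% and 15.3% of all genes), with a median of 2.39 beside 0.30. From PND12-PND14 to spermatocyte-like cells, 21 fell and none rose (22.9% and 23% of all genes, median -5.13 beside 0.29), and from there to round spermatid-like cells 15 rose and 1 fell (26.9% and 24.4% of all genes, median 1.73 beside -0.06). The 3 with the highest mean over the germ cell pools were Rhox2a (70.18 CPM), Rhox7b (45.19 CPM) and Rhox2e (42.66 CPM). In Helq null germ cells, 4 of 28 were lower and none higher, where 0.431% of all genes were lower and 0.273% higher.

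A list of 14 genes of DNA methylation was counted beside the Rhox genes. From E11.5-E13.5 to E14.5-E16.5, 6 rose and 4 fell (34.9% and 13.6% of all genes, median 0.47, beside 0.65 for all genes). Dnmt3l, the partner of de novo methyltransferases, had no UMI in the 6 pools of E11.5-E13.5, where 3 UMIs would be 0.109 to 0.145 CPM, and 17.79 to 462.5 CPM in those of E14.5-E16.5. Tet3, an enzyme that oxidises methylated DNA, rose by 4.25 ± 0.56 (adjusted p = 5.08e-08), while Tet1, of the same family, fell by 1.57 (SE 0.52, adjusted p = 0.0119) and Dnmt1, which maintains methylation, fell by 1.16 (SE 0.21, adjusted p = 1.98e-05). From E17.5-PND1 to PND2-PND5, 6 rose and 5 fell (20.4% and 28.1% of all genes, median 0.13, beside -0.35), with log2 fold changes of 2.63 ± 0.43 for Uhrf1, a partner of Dnmt1, 1.46 ± 0.38 for Dnmt3b, -3.64 ± 0.58 for Dnmt3l and -2.47 ± 0.57 for Tet2. From PND2-PND5 to PND6-PND10, 3 rose, Tet3 (1.29 ± 0.44) and Dnmt3b (1.16 ± 0.39) among them, and Tet1 (-1.76 ± 0.49) and Dnmt3l (-1.71 ± 0.57) fell, where 3.86% of all genes rose and 6.45% fell. In the first contrast Tet3 alone was called (-2.11 ± 0.53, where 4.64% of all genes fell), and in E17.5-PND1 (15.3%) Tet1 (-2.61 ± 0.49) and Setdb1 (-1.12 ± 0.20) fell. No gene of the list was called by edgeR from PND6-PND10 to PND12-PND14, where 18.8% of all genes were. From there to spermatocyte-like cells 8 fell (22.9% of all genes), Tet3 (-4.56 ± 0.60) and Dnmt3a (-4.32 ± 0.34) most. From spermatocyte-like to round spermatid-like cells 2 rose, Dnmt3l (3.13 ± 0.67) and Dnmt3a (1.41 ± 0.29), and 5 fell, Dnmt1 (-2.97 ± 0.24) and Hells (-2.90 ± 0.31) most, where 26.9% of all genes rose and 24.4% fell.

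The genes whose log2(CPM + 1) followed each Rhox gene most closely over the 54 germ cell pools were named among 14160 genes with at least 20 CPM in at least 2 pools. For Rhox5 they were Tst (Pearson r = 0.965), Dppa2 and Utf1 (0.963 each). For Rhox6 they were Pecam1 and L1td1 (0.961 each) and Peg12 (0.958), and for Rhox9 Pecam1 (0.966), Peg12 (0.965) and L1td1 (0.96). For Rhox10 they were Gab3 (0.976), Tnip2 and Ifi27l2a (0.966 each), and for Rhox13 Pnma5 (0.943), Gmds and 4933427D06Rik (0.94 each). Among the 5 genes, r was 0.906 between Rhox5 and each of Rhox6 and Rhox9, 0.867 between Rhox10 and Rhox13, and 0.045 between Rhox6 and Rhox10. All these pools share their stages, so r describes likeness over development and carries no p.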

How the data were processed

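The authors deposited raw UMI counts per gene and cell, without normalization, and a table of cells with time-point, genotype, replicate, gate and position, from which conditions were taken, since the sample labels give library names only. Their methods name UMI-tools, STAR on mm10 and featureCounts, and CASAVA 1.8 is in the submitters' processing notes. Cells with over 2000 genes and 10000 to 1000000 UMIs were kept. No doublet caller was run, since cells were picked or sorted singly.

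Cells of 3 periods were clustered without Rhox genes (1000 variable genes, 30 principal components, 20 neighbours, resolution 1.0, scanpy 1.11.5). Marker thresholds for names, 4 added neutrophil markers and the rule on globin genes were set after the clusters were seen, and a cluster led by more markers of other classes stayed unnamed. From PND0 to PND14, clusters of 250, 89, 350 and 164 cells that were germ cell-like by marker level stayed unnamed. So did late-stage clusters of 65, 239 and 60 cells that were spermatocyte-like by marker level. Their cells were in no window unless clusters were named by marker level alone. Counts were summed per pool and class (at least 10 cells) and tested with edgeR 4.0.16 (quasi-likelihood, TMM, filterByExpr) at a Benjamini-Hochberg adjusted p of 0.05 over all genes tested, on R 4.3.3. SE is the log2 fold change over the root of F. Fits were tested on simulated data. Fold changes are TMM-scaled and CPM library-scaled. The study describes its replicates as biological and independent, but the labels tie no cell to an animal and a pool may mix animals, so p-values measure the spread between pools. Floors given as 3 UMIs cover counting error only, while the SE also carries the spread between pools. The alternatives were RLE factors, library totals, DESeq2 1.42.0, no filter, 20 cells, blocks, other cluster names and leaving out pools. Named genes were the 5 members, all other Rhox genes by count with the 3 highest, the 3 most correlated genes of each member, and in a 14-gene methylation list the 2 largest rises and falls past the threshold. The members and lists were chosen with earlier results of these data known. A pool can hold cells of several libraries.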

Additional observations from a re-analysis of the deposited data

Results flagged for a closer look

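Of 50 groups of 4 to 10 pools, each taken for 1 gene, 7 held a pool whose gap to the others passed Dixon's critical value. Chance would flag about 1 in 20 groups if values were independent and normal. The 5 genes share their pools, so the groups are not independent and this rate is only a rough guide. In 4 of the 7 this was the same spermatocyte-like pool, Adult replicate 1, which was highest in Rhox5 (4.045 CPM, next 0.874), Rhox6 (0.24, next 0.0657), Rhox10 (4.445, next 0.611) and Rhox13 (29.19, next 3.259). These 4 values come from 1 pool of 81 cells and are not independent. In Sertoli-like cells of PND1-PND7 (8 pools), PND1 replicate 2 was highest in Rhox6 (4.573 CPM, next 1.707) and Rhox10 (30.05, next 15.36), and PND6 replicate 1 in Rhox13 (21.36, next 11.95).

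The difference between germ and Sertoli-like cells in Rhox5 changed between PND1-PND7 and PND12-PND14 by -8.98 on the log2 scale, in a test of the interaction over 22 sums of 11 pools that was chosen after the values were seen.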

How the results depend on the processing

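Of 1157 recomputed values of single genes, 1114 kept their direction and side of the threshold, 28 lost a call, 13 gained one and 2 turned. The 2 that turned were Rhox13 in round spermatid-like against spermatocyte-like cells without the Adult spermatocyte-like replicate 1 (1.44, against a lowest value of -0.55 with other pools left out) and Rhox5 in germ against Sertoli-like cells with PND12 and PND14 alone (-6.65). Leaving out replicates moved the number of genes called between 0 and 2 for E11.5-E13.5 and for E17.5-PND1, 1 and 2 for PND2-PND5, 0 and 3 for PND6-PND10, 4 and 5 for spermatocyte-like cells and for germ against interstitial or peritubular-like cells, 3 and 4 for germ against Sertoli-like cells (the last 3 lost a call without the pools numbered 2), 1 and 2 for the Stra8 side (1 without PND7 replicate 1) and 1 and 2 for late Sertoli-like cells (1 without PND12 replicate 1). Removing every pool numbered 1 or 2 at once leaves about 1 pool per age. Without the pools numbered 2, 0 of all genes tested were called for PND6-PND10 and 52 for E17.5-PND1. E11.5-E13.5 kept 1 call without both unsexed E10.5 pools. Naming clusters by marker level alone gave 1 call for PND6-PND10 and 1 for round spermatid-like cells, as did leaving out the Adult spermatocyte-like pool. With at least 20 cells, late Sertoli-like cells kept 1. In the interaction of germ and Sertoli-like cells, RLE factors, library totals and DESeq2 gave 2 calls against 1. 

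The replicate block changed no call of the 5 genes. In the genotype comparison it gave 80 genes of all tested against 152 without it, DESeq2 gave 534 and no filter 378. In its interaction DESeq2 gave 68 and no filter more, against 0. Same-numbered pools of the 2 genotypes share only a number: their deviations correlated at -0.379 (E13.5), -0.517 (E14.5) and -0.214 (E15.5). For distal against proximal parts, DESeq2 called 7 genes and no filter 10, against 1. In the sex comparison RLE factors gave 247 genes against 380. This comparison could not be fitted with 20 cells or with either pool left out. Depth limits Rhox6 and Rhox9 in spermatocyte-like and round spermatid-like cells, where sums of a few UMIs carry the values. The library totals alone, the other cluster names, the left-out doubted pools, the Negative gate by age and the comparisons of late Sertoli-like cells were added after seeing the data.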
